A study of Mus musculus with 4 samples.

Results

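The mouse Toll-like receptor (TLR) genes were read on 4 Affymetrix arrays, each of which holds the RNA of 1 subset of splenic dendritic cells (DCs). Of the 10 receptor genes considered, Tlr1 to Tlr9 and Tlr11, 9 have a probe set under their symbol in the platform annotation, with 15 probe sets in all, of which 13 lay above the background level on at least 1 array. No probe set carries the symbol Tlr11, so it has no value here. The 9 genes are among 18193 named genes on the array. Members were chosen by family name, with earlier results of these data known.

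The arrays are titled CD8+CX3CR1+, CD8+CX3CR1-, CD4+ and DN, which usually means that both CD4 and CD8 are missing. All came from mice of the C57BL/6 strain that carried the green fluorescent protein gene in 1 copy of Cx3cr1 (Cx3cr1gfp/+), so every subset had the same altered allele, and all 4 samples are labelled as not treated with BMP4. Cells were released with collagenase D, enriched for CD11c with magnetic beads and sorted as CD11c-high cells. The labels used here do not state the number or age of the mice, the sort gates or any pooling. For the CD8+CX3CR1- and DN arrays a second label names another DC type than the title does. Titles were used, and the signals of the sort markers went with them. Cd8a had 2530 (CD8+CX3CR1+), 4742 (CD8+CX3CR1-), 18.7 (CD4+) and 130 (DN). Cx3cr1 was 894, 97.3, 275 and 258 in the same order, and Cd4 was 93.3, 21.1, 564 and 93.9. Itgax, the gene of CD11c, lay between 3271 and 6415.

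TLRs are membrane receptors that bind conserved parts of microbes, and DCs use them to sense infection before they activate T cells. TLR1, TLR2, TLR4, TLR5 and TLR6 act mainly at the cell surface, and TLR3, TLR7, TLR8, TLR9, TLR11, TLR12 and TLR13 act in endosomes, where several of them read nucleic acids. All TLRs but TLR3 signal through the adaptor MyD88, while TLR3 uses TRIF, the product of Ticam1, and TLR4 uses both. CD8+ DCs of mouse spleen are known for TLR3 and for taking up dead cells.

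Values are MAS5 signals on a linear scale. Since each subset has 1 array there is no replicate error and no test, the number of arrays limits the precision, and a difference describes 2 arrays. In sorted bulk samples, fewer cells of a type and less RNA per cell cannot be told apart. A floor of 55.3, the 90th percentile of 130 probe sets of chemosensory receptor and keratin-associated protein genes, marked the level below which signals have no order. Differences were taken after raising lower signals to the floor, and a difference against a floored signal is a bound ("at least"). A gene was called when 2 arrays were at least 4-fold apart. Across arrays, 41.2% to 47.9% of probe sets lay above the floor, with the highest share on the CD4+ array. That array also had the highest 3'/5' ratio of the Gapdh control (11.8, against 7.56 to 8.98 on the others), which is higher in more degraded RNA, and its part in the results was not tested.

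The receptor genes whose signals separated the CD8+CX3CR1- array from the others most were Tlr3, Tlr1, Tlr5 and Tlr7. Promoter windows of the first 3 are shown because their signals ran in opposite directions on that array. Tlr4 and Tlr7 have no entry in the promoter table used. Each window holds 250 bases before and 50 after an annotated start (RefSeq, build GRCm38.p6), written 5′ to 3′ on the gene's own strand, and Tlr1 has 2 annotated starts. Capitals mark matches, on either strand, to AANNGAAA (an element of the kind bound by interferon regulatory factors, IRFs), GAGGAAGT (the kind bound by PU.1) or TGANTCA (the kind bound by AP-1 and BATF proteins).

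Tlr3, chr8:45410331-45410630, minus strand: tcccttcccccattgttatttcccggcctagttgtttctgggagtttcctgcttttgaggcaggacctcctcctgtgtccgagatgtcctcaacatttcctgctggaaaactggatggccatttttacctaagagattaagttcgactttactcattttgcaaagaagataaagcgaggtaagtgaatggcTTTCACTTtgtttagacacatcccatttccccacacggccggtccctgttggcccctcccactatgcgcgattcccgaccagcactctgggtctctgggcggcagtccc

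Tlr1, first start, chr5:64933509-64933808, minus strand: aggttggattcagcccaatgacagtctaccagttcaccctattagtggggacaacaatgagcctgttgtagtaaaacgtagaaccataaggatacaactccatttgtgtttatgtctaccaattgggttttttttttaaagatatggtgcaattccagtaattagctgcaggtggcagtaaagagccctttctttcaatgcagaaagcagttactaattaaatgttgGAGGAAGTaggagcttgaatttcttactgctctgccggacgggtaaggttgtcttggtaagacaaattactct

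Tlr1, further start, chr5:64932650-64932949, minus strand: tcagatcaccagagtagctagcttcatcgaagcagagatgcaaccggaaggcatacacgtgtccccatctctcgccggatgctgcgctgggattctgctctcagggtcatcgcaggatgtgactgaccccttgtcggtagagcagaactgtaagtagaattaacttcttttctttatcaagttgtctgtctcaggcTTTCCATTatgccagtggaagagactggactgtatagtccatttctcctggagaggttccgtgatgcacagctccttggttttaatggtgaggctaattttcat

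Tlr5, chr1:182954538-182954837, plus strand: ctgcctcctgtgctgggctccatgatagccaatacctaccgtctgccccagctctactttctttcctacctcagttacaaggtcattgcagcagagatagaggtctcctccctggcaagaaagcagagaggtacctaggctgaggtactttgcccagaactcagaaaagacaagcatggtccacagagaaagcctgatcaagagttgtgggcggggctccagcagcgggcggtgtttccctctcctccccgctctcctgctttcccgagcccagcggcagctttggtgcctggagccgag

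The Tlr3 window held 1 IRF match, TTTCACTT on the opposite strand, at positions -59 to -52 from the start. The first Tlr1 window held 1 PU.1 match at -23 to -16, and the further one held 1 IRF match, TTTCCATT on the opposite strand, at -54 to -47. No match to these letters stood in the Tlr5 window. Among 32851 windows of the same length in the table, the IRF letters occurred in 23.9%, the PU.1 letters in 3.20% and the AP-1 letters in 7.81%. Of the 10 receptor genes, 8 had a window, with 10 windows in all, of which 5 held the IRF letters, 3 the PU.1 letters and 1 the AP-1 letters. The matches describe the letters in these windows and show no binding.

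**Figure D1:**
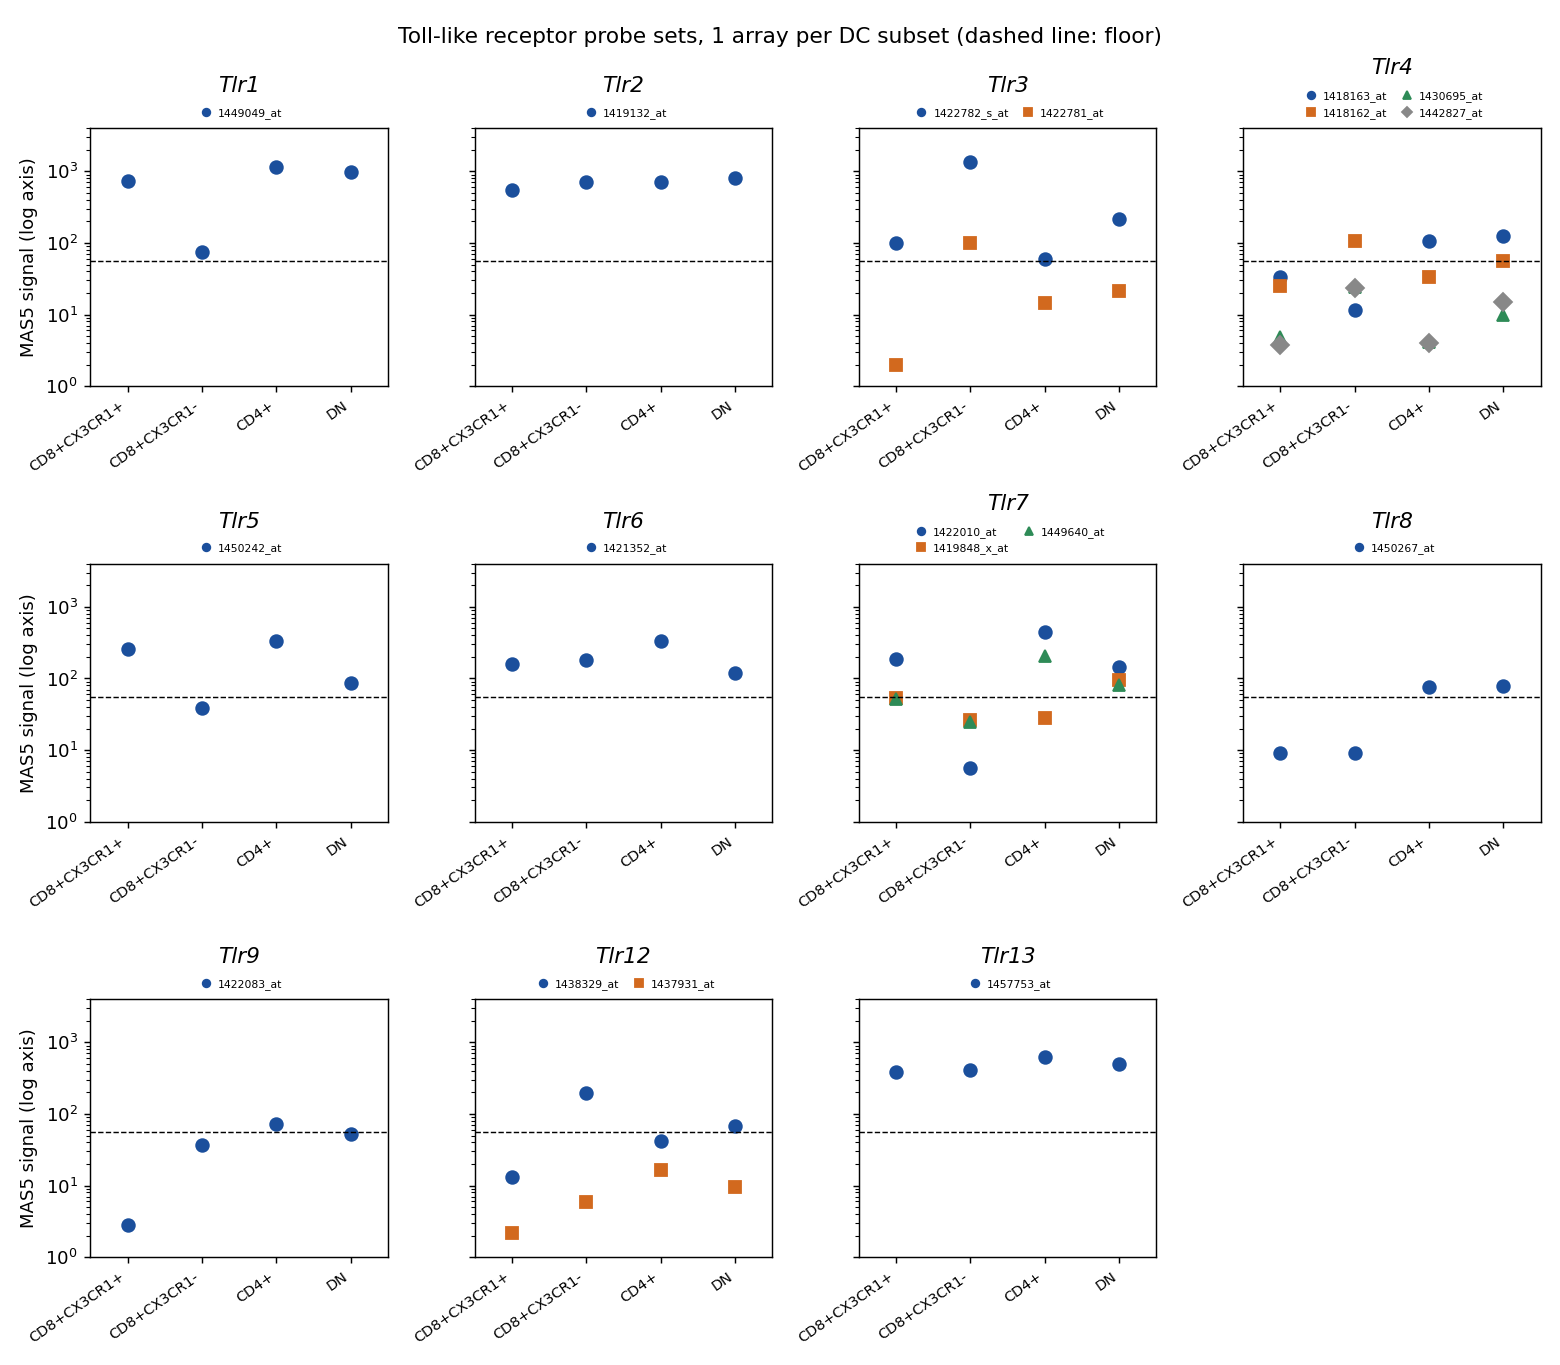
MAS5 signal (log axis) of every probe set of the receptor genes on the CD8+CX3CR1+, CD8+CX3CR1-, CD4+ and DN arrays, 1 point per probe set and array, with the floor of 55.3 as a dashed line and the probe set that represents the gene as blue circles. Tlr3 stood highest on the CD8+CX3CR1- array (1338), on which Tlr1 (75.2), Tlr5 (38.6) and the main Tlr7 probe set (5.6) stood lowest.

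Among the surface receptors, Tlr1, Tlr2 and Tlr6 encode receptors for bacterial lipopeptides, which bind as pairs of TLR2 with TLR1 or with TLR6. The Tlr1 signals were 745 (CD8+CX3CR1+), 75.2 (CD8+CX3CR1-), 1166 (CD4+) and 992 (DN). The CD8+CX3CR1- array thus stood alone, close to its own background (90th percentile 62.2), and the other 3 lay within 1.56-fold of each other. Tlr1 was 9.91-fold higher on the CD8+CX3CR1+ than on the CD8+CX3CR1- array, and the CD8+CX3CR1- array was 15.5-fold lower than the CD4+ array and 13.2-fold lower than the DN array. Since 75.2 is near background, these folds are best taken as lower limits, and the gene has no further probe set.

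Tlr2, the shared partner, had signals of 556 (CD8+CX3CR1+), 706 (CD8+CX3CR1-), 709 (CD4+) and 803 (DN). All 4 lay within 1.45-fold, and no pair was called. Tlr6, which lies next to Tlr1 on chromosome 5, had 158, 179, 331 and 118 in the same order. Its CD4+ signal was highest, 2.80-fold above the DN array, and no pair was called. Neither the partner gene Tlr2 nor the neighbour Tlr6 had the low CD8+CX3CR1- signal of Tlr1.

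Tlr5 encodes the receptor for bacterial flagellin. Its signals were 262 (CD8+CX3CR1+), 38.6 (CD8+CX3CR1-), 338 (CD4+) and 85.4 (DN). The CD8+CX3CR1+ and CD4+ arrays were high, the DN array was intermediate and the CD8+CX3CR1- array was under the floor. CD8+CX3CR1+ was at least 4.73-fold higher than CD8+CX3CR1- and 3.06-fold higher than DN. CD8+CX3CR1- was at least 6.12-fold lower than CD4+ and at least 1.54-fold lower than DN. CD4+ was 3.96-fold higher than DN, just under the threshold.

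Tlr4, whose product recognises lipopolysaccharide together with MD-2, gave low signals, and its probe sets disagreed. The probe set 1418163_at, used for the gene, had 33.0 (CD8+CX3CR1+), 11.6 (CD8+CX3CR1-), 108 (CD4+) and 124 (DN). The probe set 1418162_at had 25.0, 108, 33.4 and 55.2 in the same order. By 1418163_at the CD4+ and DN arrays were above the floor, and by 1418162_at the CD8+CX3CR1- array alone was. Both other probe sets of the gene stayed at 24.0 or less on every array. No direction is therefore given for Tlr4.

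Among the endosomal receptors, Tlr3 encodes the sensor of RNA duplexes. The brighter of its probe sets, 1422782_s_at, gave 98.4 (CD8+CX3CR1+), 1338 (CD8+CX3CR1-), 59.2 (CD4+) and 214 (DN). The CD8+CX3CR1- array stood far above the others, DN came next, and the CD4+ value was barely above its array's background of 58.1, so that folds against it are best taken as lower limits. Tlr3 was 13.6-fold lower on the CD8+CX3CR1+ than on the CD8+CX3CR1- array, and the CD8+CX3CR1- array was 22.6-fold higher than the CD4+ array and 6.24-fold higher than the DN array. On the CD8+CX3CR1+ array it was 2.18-fold lower than on the DN array and 1.66-fold higher than on the CD4+ array. The suffix _s marks a probe set that can bind more than 1 transcript. The other probe set, 1422781_at, was dim, at 2.0 (CD8+CX3CR1+), 98.6 (CD8+CX3CR1-), 14.5 (CD4+) and 21.6 (DN). It cleared the floor for CD8+CX3CR1- alone, at least 1.78-fold above each other array, so on this probe set by itself Tlr3 would not be called.

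Tlr7, a sensor of single-stranded RNA, had signals of 184 (CD8+CX3CR1+), 5.6 (CD8+CX3CR1-), 452 (CD4+) and 147 (DN) at its brightest probe set, 1422010_at. The CD4+ array was highest, and the CD8+CX3CR1- array alone was under the floor. CD8+CX3CR1- was at least 8.18-fold lower than CD4+ and at least 2.65-fold lower than DN. CD8+CX3CR1+ was at least 3.33-fold higher than CD8+CX3CR1- and 2.45-fold lower than CD4+. The probe set 1449640_at had 52.2, 24.5, 205 and 80.9 in the order CD8+CX3CR1+, CD8+CX3CR1-, CD4+ and DN, again highest on the CD4+ array, with both CD8+ arrays under the floor. The third, 1419848_x_at, had 53.2, 26.0, 28.0 and 95.6 and cleared the floor for DN alone. With the probe sets averaged, the CD8+CX3CR1- minus CD4+ difference of Tlr7 was -1.64 on the log2 scale, under the threshold.

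Tlr8, next to Tlr7 on the X chromosome and in human likewise a receptor for RNA, had 9.2 (CD8+CX3CR1+), 9.0 (CD8+CX3CR1-), 77.1 (CD4+) and 78.1 (DN). It lay above the floor on the CD4+ and DN arrays only, and the bounds against the CD8+ arrays were at least 1.39-fold and at least 1.41-fold. Tlr9, the sensor of unmethylated CpG DNA, had 2.8, 36.9, 71.3 and 52.0 in the same order and lay above the floor on the CD4+ array alone, by 1.29-fold. Signals this close to the floor rank neither gene across the subsets, and they do not show that a transcript is absent.

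Tlr12 and Tlr13, mouse receptors outside the 10 considered, were read beside them. Tlr12, which with TLR11 recognises profilin of Toxoplasma, had 13.2 (CD8+CX3CR1+), 196 (CD8+CX3CR1-), 42.1 (CD4+) and 67.9 (DN) at the brighter of its probe sets. It was highest on the CD8+CX3CR1- array, at least 3.55-fold above the CD8+CX3CR1+ and CD4+ arrays and 2.89-fold above DN, and was not called. Its other probe set was at 16.3 or less on every array. Tlr13, a receptor for bacterial ribosomal RNA, had 382, 417, 623 and 503 in the same order, within 1.63-fold.

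By pairs of arrays, 3 of the 9 receptor genes were called between CD8+CX3CR1+ and CD8+CX3CR1- DCs, with Tlr1 and Tlr5 higher and Tlr3 lower on the CD8+CX3CR1+ array. Of all 12673 genes that cleared the floor on some array, 2.82% were called in that pair. Between CD8+CX3CR1- and CD4+ DCs 4 were called, with Tlr3 higher and Tlr1, Tlr5 and Tlr7 lower on the CD8+CX3CR1- array (2.97% of all genes). Between CD8+CX3CR1- and DN DCs 2 were called, Tlr3 higher and Tlr1 lower (2.02% of all genes). The other 3 pairs had 0 calls among the receptor genes. In these pairs the shares over all genes were 0.773% for CD8+CX3CR1+ over CD4+, 0.41% for CD8+CX3CR1+ over DN and 0.253% for CD4+ over DN. The pairs share arrays, and all 9 calls involve the single CD8+CX3CR1- array, so they are not independent of each other. The median log2 difference over all these genes lay between -0.01 and 0.01 in every pair. As a measure of probe error, the difference of a gene varied over its probe sets with a root mean square SD of 0.44 to 0.59 (log2), which leaves out the spread between mice or sorts.

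**Figure D2:**
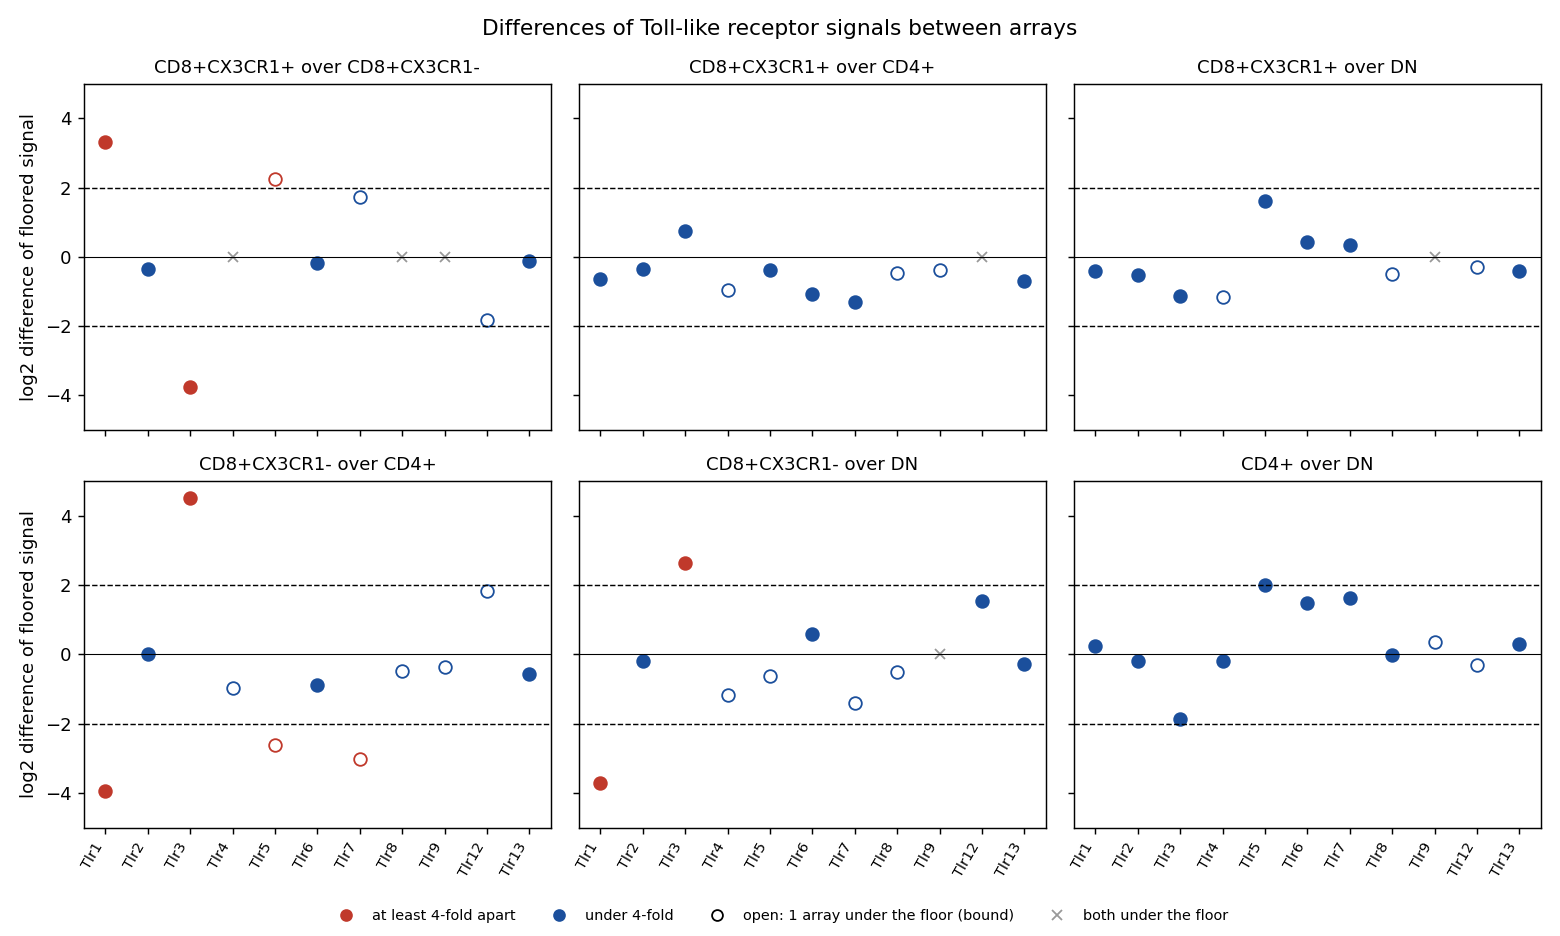
Differences of the receptor genes between each pair of arrays (log2 of the floored signals, first-named array minus the other), with dashed lines at 4-fold (2 and -2). Filled points are measured on both arrays, open points are bounds with 1 array under the floor, crosses have both under it, and red points are called; all 9 red points lie in the 3 panels that hold the CD8+CX3CR1- array.

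Genes of other cells that express TLRs were read beside these patterns. Of 10 genes of red pulp macrophages on the array, 9, 5, 7 and 5 lay above the floor on the CD8+CX3CR1+, CD8+CX3CR1-, CD4+ and DN arrays. Their summed signal was 2556, 999, 4300 and 2208. Adgre1 (F4/80) made up 3068 of the CD4+ sum, and had 579 (CD8+CX3CR1+), 143 (CD8+CX3CR1-) and 1692 (DN). Over all 10 genes the arrays stood in the order of Tlr5 and of the main Tlr7 probe set, with CD4+ first, then CD8+CX3CR1+, DN and CD8+CX3CR1-. Without Adgre1, a sum added after its values were seen, they stood otherwise, at 1977 (CD8+CX3CR1+), 856 (CD8+CX3CR1-), 1232 (CD4+) and 515 (DN). The complement gene C1qb had 742 (CD8+CX3CR1+) and 358 (CD4+) and was near the floor on the other arrays, while C1qa and C1qc were above the floor on the CD8+CX3CR1+ and CD4+ arrays only. Vcam1 was highest for CD8+CX3CR1-, at 513 against 291, 142 and 109 for CD8+CX3CR1+, CD4+ and DN. Spic, a factor that defines these macrophages, was at 56.9 to 79.6 on all arrays. Adgre1 by itself stood in the array order of Tlr1, with CD4+ first, then DN, CD8+CX3CR1+ and CD8+CX3CR1-. The part of such cells in the Tlr1, Tlr5 and Tlr7 signals was not tested.

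Plasmacytoid DCs and B cells are rich in TLR7 and TLR9. Of 9 plasmacytoid DC genes, 7, 6, 7 and 6 lay above the floor on the CD8+CX3CR1+, CD8+CX3CR1-, CD4+ and DN arrays, and their summed signal was 8080, 1124, 1633 and 2804. The main Tlr7 probe set had 184, 5.6, 452 and 147 in the same order. Tlr9 signals, at 2.8 to 71.3, were too close to the floor to rank the arrays. Of the 8 above the floor on some array, Tcf4, Klra17 and Spib were called higher on the CD8+CX3CR1+ than on the CD8+CX3CR1- array (2.82% of all genes). Their signals were 3489, 1519 and 1557 against 270, 52.1 and 60.3. Bst2, Tcf4 and Klra17 were called higher on the CD8+CX3CR1+ than on the CD4+ array (0.773% of all genes), and Klra17 also against DN (0.41%). Spib was called lower on the CD8+CX3CR1- than on the CD4+ array (2.97%), as were Tcf4, Klra17 and Spib against DN (2.02%). Siglech, which marks these cells, had 206, 63.6, 5.8 and 12.9 in the order of the sums, and Ly6d was under the floor on all arrays. Of 7 B cell genes, 4, 3, 4 and 4 lay above the floor in the same order, with sums of 5457, 3808, 5075 and 3528. Ighm made up most of these sums, and Cd79a was under the floor on all 4 arrays. Cd79b had 593, 3.1, 402 and 178 in that order, so that CD8+CX3CR1- alone was under the floor, as for Tlr5 and Tlr7. Blnk had 334, 21.0, 15.5 and 78.8. Of the 6 genes above the floor on some array, Cd79b and Blnk were called higher on the CD8+CX3CR1+ than on the CD8+CX3CR1- array (2.82% of all genes). Ms4a1 went another way, with 361, 446, 202 and 162.5, highest on the CD8+CX3CR1- array. Cr2 cleared the floor on the CD8+CX3CR1- array alone (66.0), and Pax5 on the CD4+ array alone (97.1). Of 6 monocyte genes, 3, 2, 4 and 3 were above the floor, with sums of 1408, 1420, 721 and 1079, and F13a1 and Vcan were under it throughout. Among them Ace had 150, 22.9, 226 and 113, the array order of Tlr5 and of the main Tlr7 probe set. It was called between CD8+CX3CR1- and CD4+ (2.97% of all genes). Cd14, with 449, 1089, 197 and 395, was called in the opposite direction in that pair and made up most of the CD8+CX3CR1- sum. Ccr2 had 705, 225, 143 and 540 and was called between CD8+CX3CR1+ and CD4+ (0.773% of all genes). Of 7 neutrophil genes, 0, 3, 1 and 0 were above it (sums 166, 275, 256 and 139), with S100a9, Camp, Elane and Mpo under it on all arrays. NK cell genes (5) summed to 307, 204, 205 and 344, with 3, 2, 1 and 3 above the floor and Ncr1 under it throughout. T cell genes (4) summed to 141, 49.2, 106 and 86.2, with 2, 0, 1 and 1 above it and Cd3g under it throughout. The part of these cells in the receptor signals was not tested.

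The DC identity of the arrays was read from further lists. The 5 general DC markers, Itgax, Flt3, Zbtb46, H2-Ab1 and Cd74, lay above the floor on all arrays. Of 8 markers of CD8 DCs, 6, 8, 7 and 6 lay above the floor on the CD8+CX3CR1+, CD8+CX3CR1-, CD4+ and DN arrays, with summed signals of 5888, 31313, 4148 and 10336. Xcr1 was 519 on the CD8+CX3CR1- array and under the floor on the other 3. Between CD8+CX3CR1- and CD4+, 6 of the 8 were called higher (2.97% of all genes), and Batf3 (2570 against 2678) and Ly75 (136 against 141) were not called. Of 8 genes of CD4 and CD11b DCs, the sums were 15746 (CD8+CX3CR1+), 853 (CD8+CX3CR1-), 19620 (CD4+) and 14903 (DN). Csf1r made up most of each sum, and the list holds the sort marker Cx3cr1. Between CD8+CX3CR1+ and CD8+CX3CR1-, 6 of the 8 were called higher and 0 lower (2.82% of all genes). Esam, with 167, 135, 582 and 464 in the order of the sums, was not called there, nor was Itgam, which cleared the floor for DN alone.

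Among co-receptors and carriers of TLR ligands, Cd36 and Cd14 stood highest on the CD8+CX3CR1- array. Of 5 such genes above the floor, 1 was called lower on the CD8+CX3CR1+ than on the CD8+CX3CR1- array with 0 higher. In that pair 2.82% of all genes were called. The list's median was -0.06 (log2), against 0 for all genes. Cd36, a scavenger receptor that helps TLR2 pairs to sense lipopeptides, had 57.8 (CD8+CX3CR1+), 1454 (CD8+CX3CR1-), 31.7 (CD4+) and 165 (DN). With its CD8+CX3CR1+ value near the floor, it was 25.2-fold lower on the CD8+CX3CR1+ than on the CD8+CX3CR1- array, and CD8+CX3CR1- was at least 26.3-fold higher than the CD4+ array and 8.79-fold higher than DN. Cd14, which hands lipopolysaccharide to TLR4, was 449, 1089, 197 and 395 in the order CD8+CX3CR1+, CD8+CX3CR1-, CD4+ and DN, and the CD8+CX3CR1- array was 5.53-fold higher than the CD4+ array. Ly96, the gene of MD-2, was 119, 124, 205 and 81.3 and was not called in any pair. Cd180, a TLR-like receptor of lipopolysaccharide, and its partner Ly86 were not called either.

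Chaperones carry TLRs from the endoplasmic reticulum to endosomes, and endosomal proteases cut some of them into their active form. Of 11 genes of this list above the floor, 1 was called higher (Ctsl) and 1 lower (Rab7b) on the CD8+CX3CR1+ than on the CD8+CX3CR1- array. The share of all genes called in that pair was 2.82%. The list's median was 0.30 (log2), against 0 for all genes. Unc93b1, which the nucleic acid receptors need for their transport, was 588, 878, 817 and 584 in the order CD8+CX3CR1+, CD8+CX3CR1-, CD4+ and DN, and was not called in any pair. The protease gene Ctsl had 336 (CD8+CX3CR1+), 74.0 (CD8+CX3CR1-), 221 (CD4+) and 135 (DN), and was 4.53-fold higher on the CD8+CX3CR1+ than on the CD8+CX3CR1- array, where it was near background. Rab7b, a small GTPase of late endosomes that in mouse macrophages promotes TLR4 and TLR9 degradation, was 82.9, 3191, 28.8 and 415 in the same order. It had the widest range of all genes in these pathway lists, with CD8+CX3CR1- at least 57.7-fold higher than the CD4+ array and 7.68-fold higher than DN. Rab7b was also called between CD8+CX3CR1+ and DN, with CD8+CX3CR1+ 5.01-fold lower, and between CD4+ and DN, with CD4+ at least 7.51-fold lower.

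Among the adaptors, Myd88 had signals of 1388 (CD8+CX3CR1+), 1199 (CD8+CX3CR1-), 1033 (CD4+) and 1363 (DN), within 1.34-fold. Ticam1, the TLR3 adaptor gene, was 94.4, 13.6, 11.6 and 88.1 in the same order, read at an _s probe set. It was above the floor on the CD8+CX3CR1+ and DN arrays only, by at most 1.71-fold. A signal under the floor on the array with high Tlr3 does not show that the Ticam1 transcript is absent there. No pair was called for Ticam1. Tirap, which bridges MyD88 to TLR2 and TLR4, was 82.2, 388, 125 and 117. It was 4.72-fold lower on the CD8+CX3CR1+ than on the CD8+CX3CR1- array. This was the 1 call among 5 adaptor genes in that pair (list median -0.11), where 2.82% of all genes were called. The 14 kinases and ubiquitin ligases above the floor, among them Irak1, Traf6, Ikbkb and Tbk1, had 0 calls in every pair, where the shares over all genes were 0.253% to 2.97%, so that 0 of 14 is near the background. Their list medians lay between -0.27 and 0.04 against -0.01 to 0.01 for all genes.

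Of 10 transcription factors activated or used by TLRs, 1 was called higher (Irf4) and 1 lower (Irf8) on the CD8+CX3CR1+ than on the CD8+CX3CR1- array (list median 0.11, 2.82% of all genes called). Both also stand in the DC marker lists. Irf8, needed for CD8 DCs to develop, was 1409, 13285, 617 and 4847 in the order CD8+CX3CR1+, CD8+CX3CR1-, CD4+ and DN. It was 9.43-fold lower on the CD8+CX3CR1+ than on the CD8+CX3CR1- array. CD8+CX3CR1- was 21.5-fold higher than CD4+, and CD4+ was 7.86-fold lower than DN. From high to low, the arrays stood in the same order for Irf8 as for Tlr3 (CD8+CX3CR1-, DN, CD8+CX3CR1+, CD4+), over 4 points. Rab7b, Cd36, Cxcl9 and the CD8 DC marker Naaa shared this ranking, so it is not particular to Irf8. For Rab7b and Cd36 the lowest signal, on the CD4+ array, was under the floor. Irf4, which competes with IRF5 for MyD88, had 880, 3.5, 305 and 407, with the arrays listed as for the Irf8 signals. CD8+CX3CR1+ was at least 15.9-fold higher than CD8+CX3CR1-, which was at least 5.51-fold lower than CD4+ and at least 7.36-fold lower than DN. The NF-kB family gene Relb was 2265, 631, 3119 and 1782, and the CD8+CX3CR1- array was 4.94-fold lower than CD4+. The genes of the TLR factors Irf3, Irf5 and Irf7 were not called in any pair.

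Of 12 negative regulators above the floor, 1 was called, in 1 pair, where 2.82% of all genes were called (list median 0.27 in that pair). Ptpn6, the phosphatase SHP-1, had 3660 (CD8+CX3CR1+), 897 (CD8+CX3CR1-), 3550 (CD4+) and 3056 (DN), and was 4.08-fold higher on the CD8+CX3CR1+ than on the CD8+CX3CR1- array. Tnfaip3, Tnip1, Nfkbia and Cyld were not called in any pair. Of 14 cytokine and chemokine genes that TLRs induce, 10 cleared the floor on some array (list median -0.30 for CD8+CX3CR1+ over CD8+CX3CR1-), and Il6, Il10, Il12a and Il23a were under it on all. Cxcl9, a ligand of CXCR3, had 506 (CD8+CX3CR1+), 4430 (CD8+CX3CR1-), 447 (CD4+) and 800 (DN). It was 8.75-fold lower on the CD8+CX3CR1+ than on the CD8+CX3CR1- array, and CD8+CX3CR1- was 9.91-fold higher than CD4+ and 5.53-fold higher than DN. Il12b was above the floor on the CD8+CX3CR1- array alone (186). The cells were labelled as untreated with BMP4 and no TLR ligand is named, so these levels are not a response measured here.

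**Figure D3:**
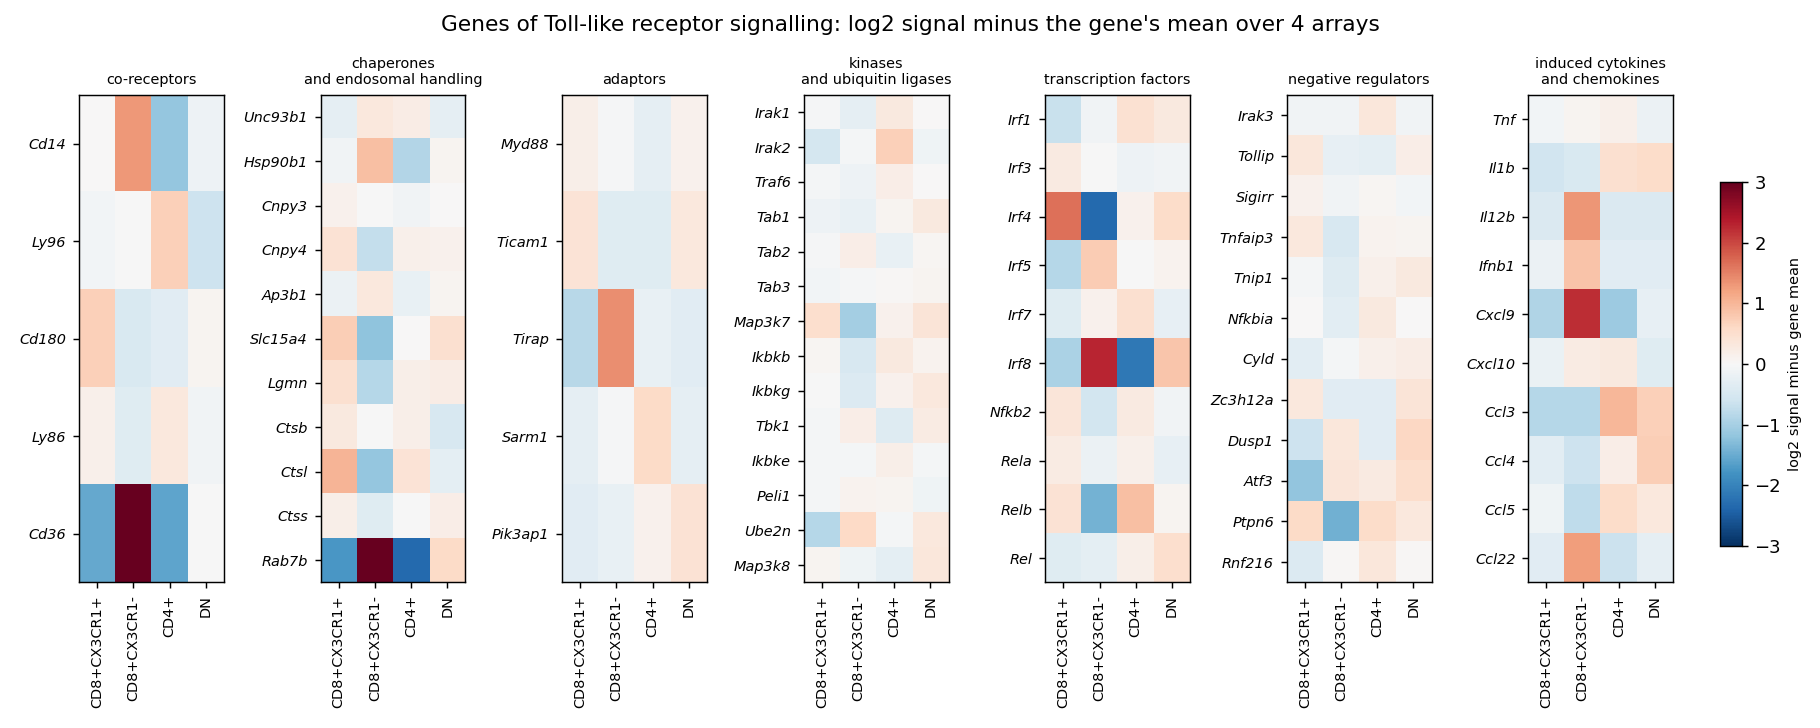
Signal of the TLR pathway genes above the floor on at least 1 array, as log2 of the floored signal minus the gene's mean over the 4 arrays (red higher, blue lower, colours capped at 3 and -3), in 7 lists with the arrays in the order CD8+CX3CR1+, CD8+CX3CR1-, CD4+ and DN. Cd36, Rab7b, Irf8 and Cxcl9 are red and Irf4 is blue on the CD8+CX3CR1- array, while the kinases stay pale.

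Sensors in the cytosol read nucleic acids or bacterial wall parts without TLRs. Of 11 above the floor, 1 was called higher on the CD8+CX3CR1+ than on the CD8+CX3CR1- array, Sting1, the adaptor of DNA sensing (2928 against 549, 5.33-fold). Of all genes, 2.82% were called in that pair. Between CD8+CX3CR1- and CD4+ 2 were called lower in CD8+CX3CR1- (2.97% of all genes), and the list median was -0.90 against -0.01 for all genes. They were Ddx58, the gene of the RNA sensor RIG-I (63.8 against 380 on CD4+, 5.95-fold, with 63.8 near that array's background of 62.2), and Nlrp3, the inflammasome sensor (25.9 against 330 on CD4+, at least 5.96-fold). Both were also lower on the CD8+CX3CR1- than on the DN array, Ddx58 by 4.59-fold, again against a value near background, and Nlrp3 by at least 4.32-fold. Ddx58 was 5.09-fold lower on the CD8+CX3CR1+ than on the CD4+ array. The RNA sensors Tlr3 and Ddx58 thus differed in opposite directions between the CD8+CX3CR1- and CD4+ arrays, and Tlr7 went with Ddx58.

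For the 4 receptor genes with a range of at least 4-fold over the arrays, the genes with the most similar profile were sought among 11928 genes. Likeness was the root mean square distance of the log2 profiles over the 4 arrays, each centred on its mean. Nearest to Tlr1 were Cd300lf (distance 0.08), Abca9 (0.10) and Mcemp1 (0.12), and 51 genes lay within 0.5. Nearest to Tlr3 were Serpinf1 (0.20), Plpp1 (0.25) and the lysosomal beta-glucuronidase gene Gusb (0.31), with 12 within 0.5. Gusb, for example, had 623 (CD8+CX3CR1+), 6165 (CD8+CX3CR1-), 476 (CD4+) and 1103 (DN). Nearest to Tlr5 were Niban3 (0.19), the ADP receptor gene P2ry13 (0.23) and the formyl peptide receptor gene Fpr2 (0.25), with 59 within 0.5. Nearest to Tlr7 were Dab2ip (0.16), Scn2b (0.18) and Tns1 (0.18), with 112 within 0.5. With 4 arrays a small distance is easily reached, and these genes are listed as a description.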

How the data were processed

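RNA of 4 DC subsets from mouse spleen was hybridised to Affymetrix mouse expression arrays. The deposited table holds 1 intensity for each probe set, which the submitters' processing notes attribute to MAS5, with no version stated. The trimmed mean (2% at each end) was 150.0 on all arrays, so differences in total RNA cannot be seen. Of 45101 probe sets, 34945 carry 1 symbol in the platform annotation, 932 several and 9160 none, and 64 are controls. Only those with 1 symbol were named. Entrez identifiers were looked up in RefSeq (GRCm38.p6), where 99.4% were found and 0 symbols changed.

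Python 3.11.15 with pandas 2.3.3, numpy 2.4.6 and matplotlib 3.10.9 was used. The probe set of highest mean log2 signal represented a gene, and signals were floored at 55.3. In the 6 pairs of arrays a difference of at least 4-fold was called, with no test. The calculation was tested on simulated arrays of genes far above the floor, with noise smaller than the spread between probe sets, so it gives no rate of false calls. The rule for names takes all receptor genes, pathway genes at least 4-fold apart in any pair, Myd88, Ticam1, Unc93b1, the sort markers, the 3 nearest profiles and up to 4 markers per list. Other pathway genes, and further markers, were named after their values were seen. The members and lists were chosen with earlier results of these data known. The 10 alternatives covered scaling, floor, probe set choice and threshold. Tlr11 is not analysed here.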

Additional observations from a re-analysis of the deposited data

How the results depend on the processing

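No paired analysis was possible because each subset has 1 array, and whether arrays share mice or a sort is not stated in the labels used here. Of the 9 calls among the receptor genes, all 9 were kept under quantile normalization, equal medians and a floor per array. All 9 were also kept with a floor at the 75th percentile, no floor and the 2-fold threshold. A lower floor or threshold can only widen or keep a called difference, so these settings could not lose a call. A floor at the 95th percentile (71.9) kept 8 and lost Tlr5 between the CD8+ arrays. Averaging a gene's probe sets kept 7, and lost Tlr3 against DN and Tlr7 against CD4+. The calls of Tlr1 and Tlr5, which have 1 probe set each, could not be lost there. Leaving out _x, _s and _a probe sets kept 6 and lost Tlr3 in all 3 pairs. The 6 kept calls rest on probe sets without these suffixes and could not be lost. Asking for 4-fold in the same direction at every probe set kept 5, those of Tlr1 and Tlr5, which again could not be lost. Averaging and asking for every probe set use more probe sets of a gene than the main setting, and leaving out suffixes reads Tlr3 at its dimmer one. The lost calls are of Tlr3 and Tlr7, whose probe sets differ. Counts moved by over 1.5 times in the following cases. Without a floor there were 5 calls for CD8+CX3CR1+ over CD8+CX3CR1-, 2 over CD4+ and 2 over DN, and 5 for CD8+CX3CR1- over DN, since low signals of Tlr4, Tlr7, Tlr8 and Tlr9 then entered. Of all 18193 genes, 17.5%, 17.0%, 15.5% and 18.5% were called in these pairs, so that 2 of 9 is near the background. CD8+CX3CR1- over DN gave 1 with probe sets averaged (1.25% of all genes) and 1 without _x, _s and _a probe sets (1.90%). With every probe set required, CD8+CX3CR1- over DN gave 1 and CD8+CX3CR1- over CD4+ gave 2. The share over all genes was not computed for that setting. At 2-fold there were 2 for CD8+CX3CR1+ over CD4+, 3 over DN, 4 for CD8+CX3CR1- over DN and 4 for CD4+ over DN, with 9.40%, 5.92%, 11.0% and 7.60% of all genes. Quantile normalization gave 1 for CD4+ over DN (Tlr5, 3.96-fold otherwise), with 0.287% of all genes. No called difference changed sign. Of 54 single differences per setting, all 54 moved by less than the probe-set spread under both other scalings, the floor per array and the 95th percentile. This held for 48 without _x, _s and _a probe sets, 41 with probe sets averaged, 40 at the 75th percentile and 38 without a floor. Leaving out _x, _s and _a probe sets could change Tlr3 alone, and all 6 of its differences moved. Averaging could change only Tlr3, Tlr4 and Tlr7, which have several probe sets, and 13 of their differences moved. For the other genes these 2 settings could not change a difference. Signals under or near the floor limit Tlr4, Tlr7, Tlr8 and Tlr9.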
